A study of Homo sapiens with 4 samples.

Results

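The genes described are 10 genes of lipid handling: the lipases LPL and LIPG with their inhibitor ANGPTL4, the lipid efflux and LXR target genes ABCA1, ABCG1, APOE and MYLIP, and the fatty acid enzymes SCD, FADS1 and FASN. They were picked by name from a table of 63241 gene rows, with results of these data in view, and the choice rested on LIPG and LPL being higher with TGF-β than without. Each gene name matched 1 row. The data are mRNA counts from the established cell line LX-2, which derives from human hepatic stellate cells and was immortalised. Cells were starved in medium with 0.5% serum for 24 h and then treated for 24 h under 4 conditions with 1 library each. These were a control, TGF-β at 20 ng/mL, TGF-β at 20 ng/mL with the compound BDS4 at 5 µM, and TGF-β at 20 ng/mL with RVX-208 (apabetalone, a BET bromodomain inhibitor) at 5 µM. The column of the TGF-β library is named for DMSO and that of the control is not, and whether the control also got vehicle was not given in the sources used here. BDS4 is a code name, and the study concerns covalent inhibitors of the first bromodomain of BET proteins, the readers of acetylated histones.

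Lipoprotein lipase and endothelial lipase are secreted enzymes that release fatty acids from circulating lipoproteins, the former mainly from triglycerides and the latter mainly from phospholipids of HDL. Liver X receptors (LXRs) sense oxysterols and switch on genes that move cholesterol out of the cell, among them ABCA1 and ABCG1, while SREBP factors switch on fatty acid and cholesterol synthesis when sterols are low. Quiescent stellate cells store retinyl esters and triglycerides in lipid droplets, and lose these droplets when they turn into matrix-producing myofibroblasts, for which TGF-β is the main cytokine.

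Stretches before the RefSeq start of 4 of the genes are shown, LIPG, ABCA1, MYLIP and SCD, because these genes and LPL differed at least 2-fold between the compounds. Sequences are from RefSeq (GRCh38.p14), 5′ to 3′ on the gene's own strand. They were taken from the 250 bases before the RefSeq start and trimmed to the longest run outside exons of GENCODE 29. The LIPG stretch lies between exons inside the gene as GENCODE places it, since GENCODE starts LIPG further upstream, at 49560699. Capitals mark matches, on either strand, to CCAAT or to CACGTG. In the 30 bases of the ABCA1 site they mark a match with 2 mismatches to a direct repeat of AGGTCA, both copies 4 bases apart, the form that LXR and RXR bind.
LIPG, chr18:49561891-49562030, plus strand: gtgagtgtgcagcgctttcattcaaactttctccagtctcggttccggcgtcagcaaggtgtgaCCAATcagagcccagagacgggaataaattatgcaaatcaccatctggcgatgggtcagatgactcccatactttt
ABCA1, chr9:104928238-104928405, minus strand: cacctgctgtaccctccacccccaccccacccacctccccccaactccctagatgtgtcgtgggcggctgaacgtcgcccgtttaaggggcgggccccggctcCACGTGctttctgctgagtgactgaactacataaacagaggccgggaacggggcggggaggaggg
ABCA1 site, chr9:104928202-104928231, minus strand: caggcttTGACCGATAGTAACCTctgcgct
MYLIP, chr6:16128836-16129085, plus strand: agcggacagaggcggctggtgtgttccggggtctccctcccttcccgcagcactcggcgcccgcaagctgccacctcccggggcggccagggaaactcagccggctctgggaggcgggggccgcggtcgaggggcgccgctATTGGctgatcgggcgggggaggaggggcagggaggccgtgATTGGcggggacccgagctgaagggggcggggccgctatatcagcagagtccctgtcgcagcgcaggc
SCD, chr10:100346983-100347123, plus strand: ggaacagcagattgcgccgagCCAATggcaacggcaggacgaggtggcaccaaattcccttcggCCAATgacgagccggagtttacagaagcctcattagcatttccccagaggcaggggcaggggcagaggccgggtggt

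The ABCA1 site reads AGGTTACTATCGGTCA on the opposite strand and lies 54 to 69 bases before the RefSeq start, inside the first exon of an ABCA1 transcript that GENCODE starts further upstream. Of 34788 promoter windows of 250 bases, 2.04% hold a match to the repeat with at most 2 mismatches. CACGTG, found in the ABCA1 stretch, occurs in 6.31% of windows, and CCAAT, found in the LIPG, MYLIP and SCD stretches, in 32.0%. ABCA1 and ANGPTL4 each have TATAAA within 31 bases of the start, as do 10.8% of windows anywhere in their 250 bases. Neither TGACTCA (4.21% of windows) nor CAGACA (13.6%) has a match in the windows of LIPG, ABCA1, MYLIP or SCD, and no match overlaps another. A match is a description of the letters only. MYLIP and SCD both hold 2 CCAAT matches. Promoter entries were used for 7 of the 10 genes.

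The 4 libraries held 17022369 to 22503094 counts. Levels are given as counts per 1000000 counts after TMM scaling (CPM), which corrects each library's total for composition. With 1 library per group there was no replicate and no test: brackets give 95% counting intervals, and differences between cultures were not measured. Called genes are those whose ratio between 2 libraries was at least 2 in either direction with an interval that excluded 1, and "rose" and "fell" are used only of such calls. All 10 genes were among the 16099 that reached 1 CPM in at least 1 library; LPL did so only with TGF-β and with BDS4. Markers of hepatic stellate cells reached 1 CPM in 9 or 10 of 13 cases per library, while LRAT, a marker of the quiescent cell, was at 0 counts in all 4. The share of mitochondrial ribosomal RNA was 0.903% of counts with BDS4 and 0.212% to 0.248% in the other libraries, and the nuclear RNAs MALAT1 and NEAT1 were higher with both compounds than with TGF-β alone (24.4 CPM with TGF-β, 69.0 with BDS4 and 69.1 with RVX-208 for MALAT1; 60.6, 968 and 127 CPM for NEAT1). Of 4 such RNAs (MT-RNR1, MT-RNR2, MALAT1 and NEAT1), 4 were called higher with BDS4 and 2 with RVX-208 against TGF-β. The shares over all tested genes were 14.5% and 2.94%. Against the control, 3 were called higher with BDS4 and 0 with RVX-208, beside 14.9% and 5.39% of all tested genes. The part of these RNA levels in the results with the compounds was not tested.

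LIPG encodes endothelial lipase and lies on chromosome 18 (49560699 to 49599182, plus strand, GRCh38). It had 63 counts in the control (2.64 CPM), 1606 with TGF-β (72.7 CPM), 155 with BDS4 (7.60 CPM) and 1184 with RVX-208 (70.3 CPM). The 2 high libraries were TGF-β alone and TGF-β with RVX-208, and no interval of theirs met that of the control or of BDS4. With TGF-β the gene was 27.6-fold above the control (21.4 to 36.1), the difference for which it was chosen. BDS4 brought it 9.57-fold below TGF-β alone (8.11 to 11.4), which left it 2.88-fold above the control (2.14 to 3.93). RVX-208 stood at 0.967 of the TGF-β level (0.896 to 1.04). Since the TGF-β library was chosen for its high LIPG count, a lower value in another library against it is in part set by that choice. The direct comparison of the compounds does not use the TGF-β library, and there LIPG was 9.25-fold lower with BDS4 (7.82 to 11.0).

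LPL encodes lipoprotein lipase, the enzyme that clears triglyceride-rich lipoproteins. It was the lowest of the 10 genes by FPKM with TGF-β and with RVX-208, and level with ANGPTL4 and LIPG in the control. FPKM divides by gene length, so these places rest on the lengths used, which counting intervals do not cover. LPL had 23 counts in the control, 67 with TGF-β, 72 with BDS4 and 12 with RVX-208. Its levels were 0.963, 3.03, 3.53 and 0.713 CPM in that order. TGF-β alone and TGF-β with BDS4 were the high libraries, the reverse of the order of LIPG under the compounds. LPL was 3.15-fold above the control with TGF-β (1.94 to 5.30), again the basis of its choice, and fell 4.26-fold with RVX-208 (2.28 to 8.65). As for LIPG, the choice of LPL for its level with TGF-β in part sets a lower value against that library. With BDS4 the ratio to TGF-β was 1.16 (0.823 to 1.65). BDS4 was 4.95-fold above RVX-208 (2.67 to 10.0), an interval whose width reflects the 12 counts with RVX-208.

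ANGPTL4 encodes a secreted inhibitor of lipoprotein lipase that is induced by fasting, hypoxia and PPAR factors, and lies on chromosome 19 (8363289 to 8374373, plus strand). Its counts were 27 in the control, 233 with TGF-β, 241 with BDS4 and 305 with RVX-208, or 1.13, 10.6, 11.8 and 18.1 CPM. All 3 libraries with TGF-β were high, and the intervals of TGF-β alone and BDS4 overlapped. The ratio to control was 9.33 with TGF-β (6.25 to 14.5), 10.5 with BDS4 (7.01 to 16.2) and 16.0 with RVX-208 (10.8 to 24.7). Against TGF-β alone, BDS4 stood at 1.12 (0.931 to 1.35) and RVX-208 at 1.72 (1.44 to 2.05), both under the 2-fold rule.

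**Figure D1:**
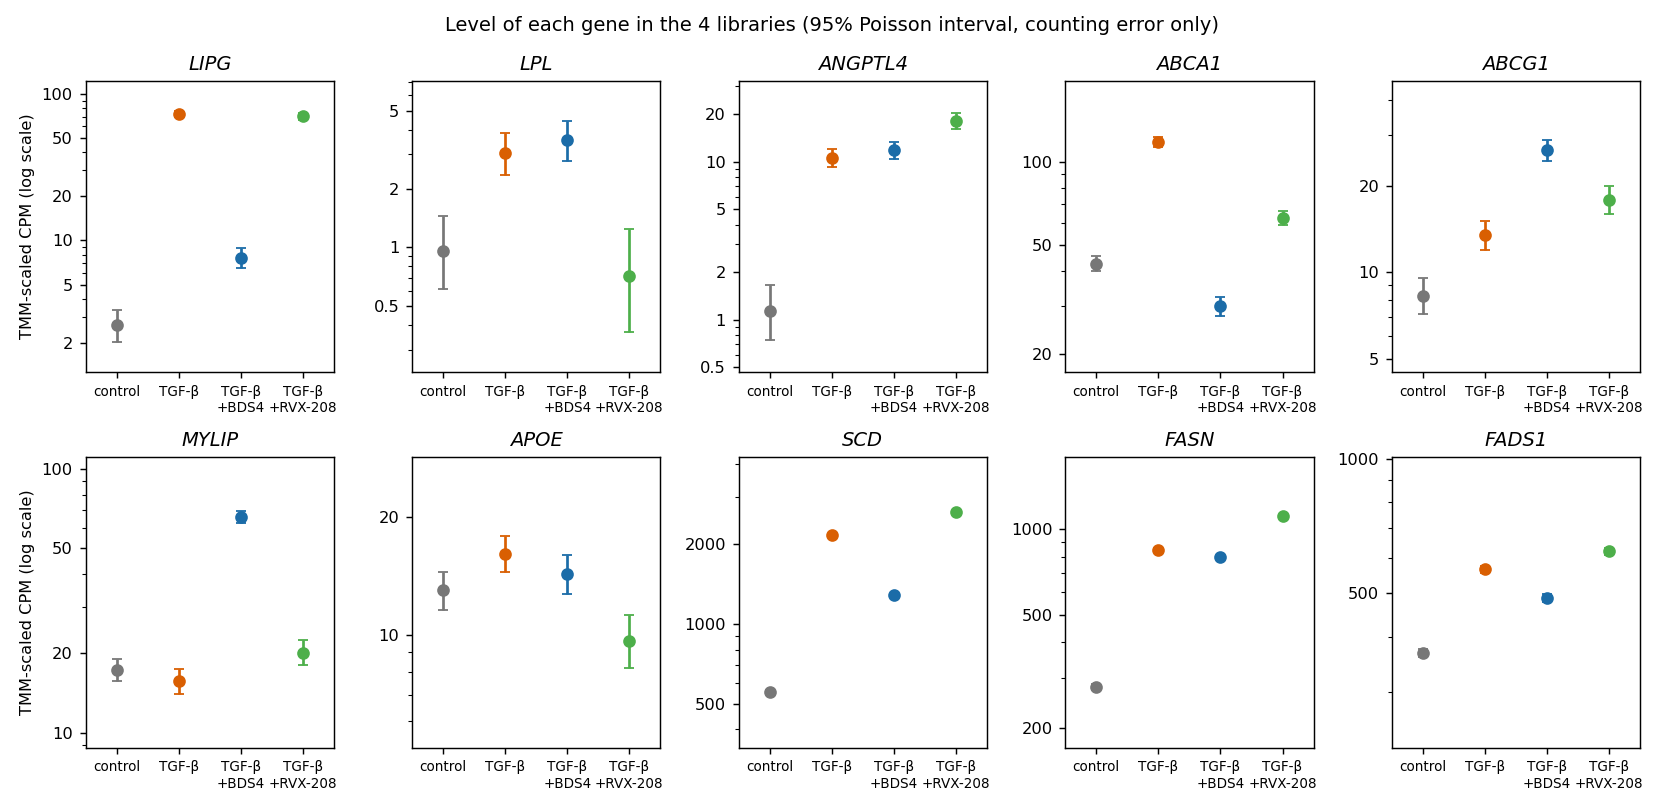
Level of each of the 10 genes in the 4 libraries, as TMM-scaled CPM on a log axis with 95% Poisson intervals for counting error. LIPG is high with TGF-β and RVX-208 (72.7 and 70.3 CPM), LPL with TGF-β and BDS4 (3.03 and 3.53 CPM), and MYLIP with BDS4 (65.9 CPM).

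Endothelial cells, macrophages and adipocytes are among the usual sources of these lipases, so their markers were read beside them. The 8 endothelial markers summed to 12.5 to 15.7 CPM per library, with STAB2 and CLEC4G at 0 in all 4 and ERG at 0 in the control and TGF-β libraries. Of the 3 that were measured, with BDS4 against TGF-β TEK fell from 9.56 to 0.441 CPM and VWF from 2.17 to 0.588 CPM, as LIPG fell, and KDR rose from 2.90 to 10.2 CPM; with RVX-208, 0 were called. The 8 macrophage markers summed to 42.4 CPM in the control, 29.7 with TGF-β, 23.8 with BDS4 and 17.8 with RVX-208, with MARCO at 0 throughout. Of the 8 adipocyte markers, ADIPOQ and LEP were at 0 in every library, and ADIPOR2, which many cells express, made up most of the summed 300 to 593 CPM. Hepatocyte markers reached 1 CPM in 1 of 8 cases in each library and summed to 1.62 to 3.80 CPM. The 6 cholangiocyte and epithelial markers summed to 488 CPM in the control, 853 with TGF-β, 195 with BDS4 and 541 with RVX-208, highest with TGF-β and lowest with BDS4 as for ABCA1, and EPCAM was at 0 with BDS4. The 13 stellate cell markers summed to 5872, 9175, 5029 and 7690 CPM in the same libraries, likewise highest with TGF-β and lowest with BDS4. The part of these marker levels in the results was not tested. All 4 libraries are labelled as the cell line LX-2. In such bulk RNA, fewer cells expressing a marker and less RNA per cell cannot be told apart.

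ABCA1 encodes the transporter that loads cholesterol and phospholipid onto apolipoprotein A-I, and lies on chromosome 9 (104781002 to 104928237, minus strand). It had 1018 counts in the control, 2601 with TGF-β, 610 with BDS4 and 1050 with RVX-208, or 42.6, 118, 29.9 and 62.4 CPM. The TGF-β library was the highest and the BDS4 library the lowest, and no 2 of the 4 intervals met. With TGF-β it was 2.76-fold above the control (2.57 to 2.97). It fell 3.94-fold with BDS4 (3.60 to 4.31), to 0.702 of the control (0.634 to 0.777). With RVX-208 it was 1.89-fold below TGF-β (1.76 to 2.03), short of the 2-fold rule. Between the compounds, ABCA1 was 2.09-fold lower with BDS4 (1.89 to 2.31).

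ABCG1 passes cholesterol to HDL particles and is, like ABCA1, a classic LXR target, on chromosome 21 (42199689 to 42297244, plus strand). Its counts of 198, 297, 544 and 301 for control, TGF-β, BDS4 and RVX-208 gave 8.29, 13.5, 26.7 and 17.9 CPM. The BDS4 library was the highest, where for ABCA1 it was the lowest. The ratio of BDS4 to TGF-β was 1.98 (1.72 to 2.29), just under the rule, and its ratio to control was 3.22 (2.73 to 3.81). RVX-208 stood at 1.33 of TGF-β (1.13 to 1.57) and at 2.16 of the control (1.8 to 2.59), while TGF-β alone stood at 1.62 of the control (1.35 to 1.95).

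MYLIP, also named IDOL, encodes a ubiquitin ligase that LXRs induce and that sends lipoprotein receptors to degradation. It lies on chromosome 6 (16129125 to 16148248, plus strand) and had 415 counts in the control, 346 with TGF-β, 1344 with BDS4 and 339 with RVX-208. These were 17.4, 15.7, 65.9 and 20.1 CPM, so that the BDS4 library stood apart and the others lay within 1.29-fold of one another. MYLIP rose 4.21-fold with BDS4 against TGF-β (3.73 to 4.75), and was 3.79-fold above the control (3.39 to 4.24) and 3.27-fold above RVX-208 (2.90 to 3.70). With RVX-208 the ratio to TGF-β was 1.29 (1.10 to 1.5), and TGF-β stood at 0.902 of the control (0.780 to 1.04).

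APOE encodes apolipoprotein E, which carries cholesterol out of cells and back to the liver, and lies on chromosome 19 (44905754 to 44909393, plus strand). Its 310, 356, 291 and 162 counts in control, TGF-β, BDS4 and RVX-208 gave 13.0, 16.1, 14.3 and 9.62 CPM. No pair of libraries met the 2-fold rule. The lowest was RVX-208, at 0.597 of TGF-β (0.493 to 0.721), and BDS4 stood at 0.885 of TGF-β (0.755 to 1.04).

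Ratios of these genes within a library do not depend on how libraries are scaled. On the FPKM scale, which divides by gene length and library total, MYLIP stood at 1.89 of ABCA1 in the control (1.69 to 2.13), 0.618 with TGF-β (0.551 to 0.692), 10.2 with BDS4 (9.30 to 11.3) and 1.5 with RVX-208 (1.32 to 1.70). ABCG1 stood at 0.392, 0.230, 1.8 and 0.577 of ABCA1 in the same order. For both pairs the ratio was lowest with TGF-β alone and highest with BDS4, and BDS4 was the library in which ABCG1 exceeded ABCA1 by FPKM. By counts ABCA1 was above ABCG1 with BDS4 as well (610 against 544). LIPG and LPL were level by FPKM in the control (ratio 1.19, 0.726 to 2.01) and with BDS4 (0.933, 0.701 to 1.25). They stood 10.4-fold apart with TGF-β (8.14 to 13.5) and 42.8-fold with RVX-208 (24.4 to 83.0). By counts LIPG was above LPL in the control (63 against 23) and with BDS4 (155 against 72). Ratios between genes thus rest on the gene lengths used for FPKM, which the counting intervals do not cover.

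**Figure D2:**
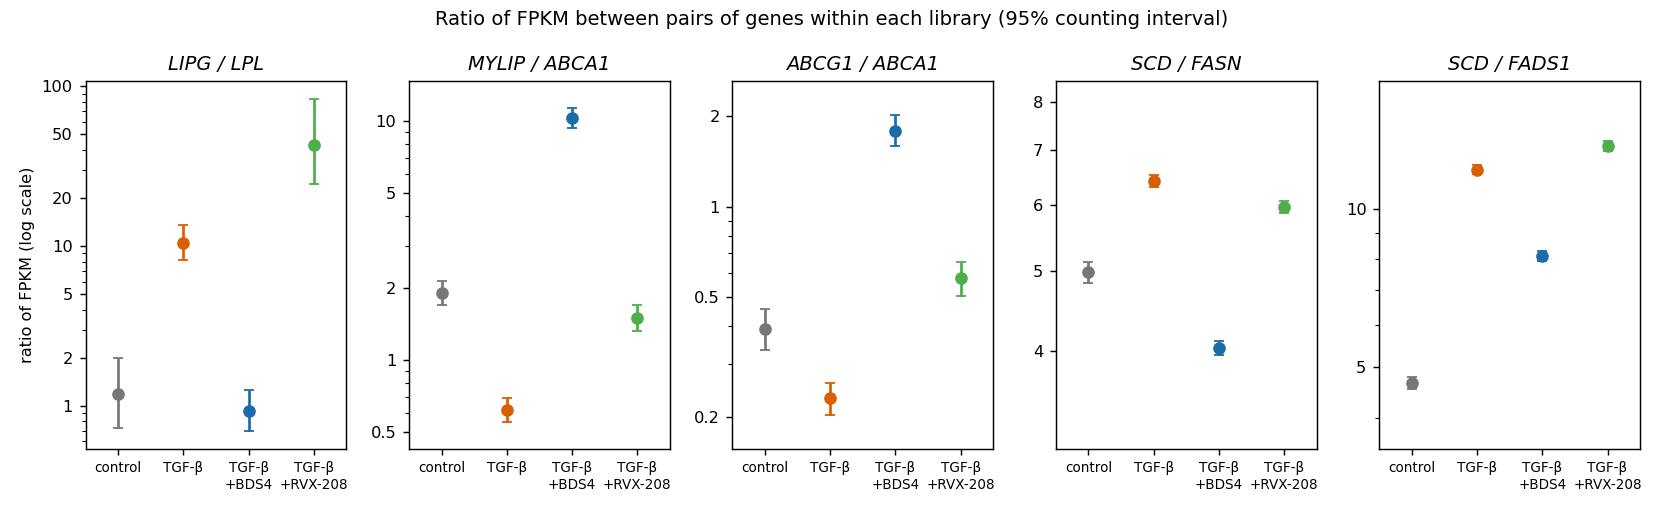
Ratio of FPKM between pairs of genes in each of the 4 libraries, on log axes with 95% counting intervals. MYLIP to ABCA1 and ABCG1 to ABCA1 are highest with BDS4 (10.2 and 1.8), and LIPG to LPL is highest with RVX-208 (42.8).

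SCD encodes stearoyl-CoA desaturase, which makes oleate and palmitoleate, and lies on chromosome 10 (100347124 to 100364834, plus strand). It was the highest-expressed of the 10 genes by FPKM in every library. It had 13259 counts in the control, 47982 with TGF-β, 26180 with BDS4 and 44551 with RVX-208, or 555, 2173, 1284 and 2646 CPM. The control was lowest, BDS4 intermediate, and the libraries with TGF-β alone and RVX-208 highest. SCD was 3.91-fold above the control with TGF-β (3.84 to 3.99), 2.31-fold with BDS4 (2.26 to 2.36) and 4.77-fold with RVX-208 (4.68 to 4.86). Against TGF-β alone, BDS4 was 1.69-fold lower (1.67 to 1.72) and RVX-208 stood at 1.22 (1.20 to 1.23), so neither met the rule. The compounds differed from each other by 2.06-fold (2.03 to 2.09), with BDS4 the lower.

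FASN encodes fatty acid synthase, which makes palmitate, the precursor of the desaturase's substrates, and lies on chromosome 17 (82078333 to 82098332, minus strand). Counts of 6654, 18667, 16209 and 18647 in control, TGF-β, BDS4 and RVX-208 gave 279, 845, 795 and 1108 CPM. All 3 libraries with TGF-β lay above the control, by 3.03-fold with TGF-β alone (2.95 to 3.12), 2.85-fold with BDS4 (2.77 to 2.94) and 3.98-fold with RVX-208 (3.87 to 4.09). The ratio to TGF-β was 0.940 with BDS4 (0.921 to 0.960) and 1.31 with RVX-208 (1.28 to 1.34).

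FADS1 encodes a desaturase of polyunsaturated fatty acids on the path to arachidonic acid, and lies on chromosome 11 (61799625 to 61829318, minus strand). Its counts were 8791, 12509, 9954 and 10458, which gave 368, 567, 488 and 621 CPM in control, TGF-β, BDS4 and RVX-208. No pair of libraries met the 2-fold rule. TGF-β stood at 1.54 of the control (1.5 to 1.58), BDS4 at 0.862 of TGF-β (0.839 to 0.885) and RVX-208 at 1.10 (1.07 to 1.13). The neighbouring desaturase gene FADS2, on the opposite strand, covers 4.79% of FADS1 exon bases, and the strand setting of the counting was not given in the sources used here. FADS2 went from 197 CPM in the control to 487 with TGF-β, 203 with BDS4 and 553 with RVX-208, and so met the rule in 3 of the 4 comparisons where FADS1 met it in 0. These 3 calls ended when FADS2 was summed with FEN1, which shares 0.444% of its exon bases (log2 ratios 0.50, -0.42 and -0.55). In control, TGF-β, BDS4 and RVX-208 the sum held 13757, 17951, 12353 and 14902 counts, of which FADS2 gave 4703, 10761, 4131 and 9308. FEN1's own reads make up the rest, so the sum does not decide whether the FADS2 calls rest on shared reads.

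Together SCD, FASN and FADS1 took 0.128% of all counts in the control (0.126 to 0.129, exact binomial interval), 0.362% with TGF-β (0.360 to 0.365), 0.242% with BDS4 (0.240 to 0.244) and 0.433% with RVX-208 (0.430 to 0.436). By FPKM, SCD stood at 4.66 of FADS1 in the control, 11.9 with TGF-β, 8.13 with BDS4 and 13.2 with RVX-208. Its ratio to FASN was 4.98, 6.42, 4.03 and 5.97 in the same libraries, lowest with BDS4.

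In order of FPKM, SCD, FASN and FADS1 came first in every library, with FADS1 (24.1) just above FASN (22.6) in the control and below it in the other 3. The places below them changed. Places and levels here rest on the gene lengths used for FPKM, which the intervals do not cover. ABCA1 ranked 4 with TGF-β (7.73 FPKM), and MYLIP ranked 4 in the control (5.57), with BDS4 (18.8) and with RVX-208 (6.01). LIPG stood level with ANGPTL4 and LPL in the control (0.159, 0.150 and 0.134 FPKM), with MYLIP and APOE under TGF-β (4.16, 4.78 and 4.32), with LPL under BDS4 (0.406 and 0.435) and with ABCA1 under RVX-208 (3.94 and 4.01), each pair next to each other in order having overlapping intervals. APOE and ABCG1 also overlapped with BDS4 (3.57 and 3.29) and with RVX-208 (2.52 and 2.31), where ANGPTL4 (2.24) overlapped ABCG1 in turn.

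Counted over the 10 genes, 6 were called higher and 0 lower with TGF-β, where 9.68% of all tested genes were called, 5.32% higher and 4.37% lower. This comparison was used to choose the genes, so nothing is read from the count. Their median log2 ratio was 1.51, beside -0.01 over all tested genes. With BDS4 against TGF-β, MYLIP rose and LIPG and ABCA1 fell, 3 of 10, beside 32.2% of all tested genes (14.5% higher and 17.7% lower), a share near the background. Their median was -0.13, beside -0.01. With RVX-208 against TGF-β, LPL fell and 9 genes were not called, beside 8.19% of all tested genes (2.94% higher and 5.25% lower), again near the background. The median was 0.21, beside 0.00. These comparisons share the TGF-β library.

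Against the control, which also served in the choice of the genes, 7 of the 10 were higher and 0 lower with BDS4, beside 33.1% of all tested genes called (14.9% higher and 18.2% lower). They were LIPG, LPL, ANGPTL4, ABCG1, MYLIP, SCD and FASN. With RVX-208, 5 were higher and 0 lower, namely LIPG, ANGPTL4, ABCG1, SCD and FASN, beside 12.3% of all tested genes (5.39% higher and 6.88% lower).

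The compounds were compared directly as 1 pair at the same dose and time. BDS4 was higher than RVX-208 for LPL and MYLIP and lower for LIPG, ABCA1 and SCD, 5 of 10 genes, beside 24.8% of all tested genes (11.7% higher and 13.1% lower). The median log2 ratio was -0.41, beside -0.01. ANGPTL4 (ratio 0.652, 0.549 to 0.775), ABCG1 (1.49, 1.29 to 1.72), APOE (1.48, 1.22 to 1.81), FASN (0.718, 0.703 to 0.733) and FADS1 (0.786, 0.764 to 0.808) did not meet the rule, and each interval excluded 1 for counting error only.

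**Figure D3:**
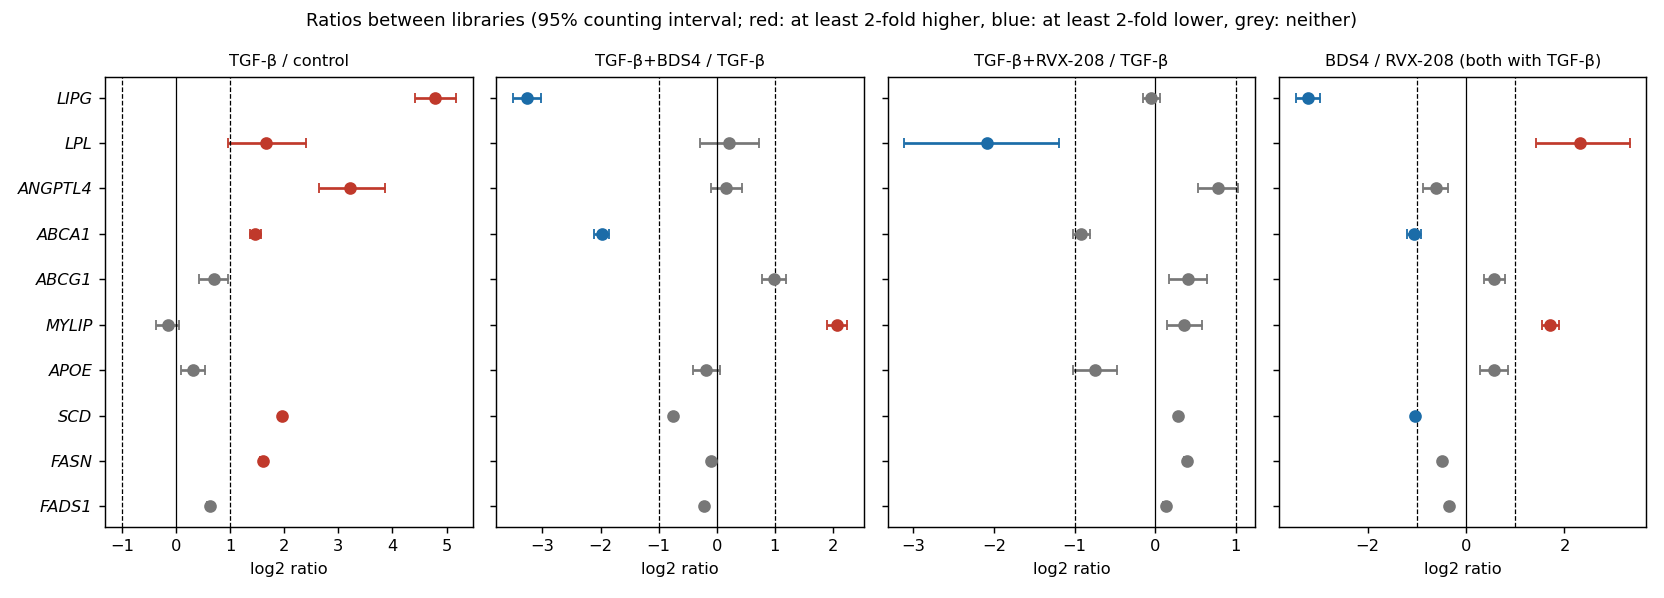
Log2 ratios of the 10 genes in the 4 comparisons with 95% counting intervals; dashed lines mark 2-fold, red points genes called higher, blue points genes called lower and grey points neither. Against TGF-β, BDS4 has LIPG (-3.26) and ABCA1 (-1.98) lower and MYLIP (2.07) higher, and RVX-208 has LPL (-2.09) lower.

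The wider pathways were read from 9 lists of 166 genes in all, 138 of them measured, and some genes stand in more than 1 list. The counts of called genes below are to be read against 9.68% of all tested genes called with TGF-β, 32.2% with BDS4, 8.19% with RVX-208 and 24.8% between the compounds, and nothing is called particular to a list. Of the secreted lipases and their partners, 8 of 19 were measured. With TGF-β the 3 called higher were LIPG, LPL and ANGPTL4 themselves (median 0.12). With BDS4, 1 rose and 3 fell (median 0.08): PCSK5, a proprotein convertase that can cleave both lipases, went from 1.13 to 23.3 CPM, and FURIN, a convertase of the same family, from 183 to 89.3 CPM. With RVX-208, 2 rose and 1 fell (median 0.14), and FURIN went the other way, to 432 CPM. GPIHBP1, which anchors lipoprotein lipase to capillaries, had at most 3 counts in any library.

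Of 16 lipases acting inside the cell, 15 were measured, and 0 were called with TGF-β (median -0.12) or with RVX-208 (median -0.18). With BDS4, 4 rose and 3 fell (median 0.12). PNPLA2, the adipose triglyceride lipase, rose from 91.2 to 299 CPM and its activator ABHD5 from 27.2 to 67.2 CPM, while its inhibitor G0S2 fell from 225 to 87.0 CPM. MGLL, which cleaves monoglycerides, fell from 68.6 to 16.0 CPM, and LIPE, the hormone-sensitive lipase, from 13.3 to 5.79 CPM. NCEH1, a cholesteryl ester hydrolase, rose from 78.5 to 211 CPM. Between the compounds, PNPLA2 and ABHD5 were higher and MGLL, LIPE and G0S2 lower with BDS4.

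In the list of LXR factors, lipid efflux genes and LXR targets, 20 of 21 were measured. With TGF-β, 2 rose, ABCA1 among them, and 0 fell (median 0.21). With BDS4, 4 rose and 5 fell (median -0.23). ABCA7, a transporter close to ABCA1, rose from 26.9 to 128 CPM with BDS4, and PLTP, the phospholipid transfer protein gene, from 14.6 to 31.4 CPM. Both LXR genes and RXRA did not meet the rule in the 4 comparisons: NR1H2 (LXRβ) had 74.7, 94.2, 73.9 and 86.0 CPM, NR1H3 (LXRα) 4.48, 3.85, 2.84 and 3.92 CPM and RXRA 50.5, 37.3, 19.6 and 34.3 CPM in control, TGF-β, BDS4 and RVX-208. RXRB, another partner receptor of the LXRs, had 98 counts in the control and 107 with TGF-β, and fell to 3 counts with BDS4 (log2 ratio -5.04) and 6 with RVX-208 (-3.77). It lies in the MHC region, where alternative copies of genes exist, and whether its reads were shared with such a copy was not tested. RXRB was the gene of the list that fell with RVX-208, where 0 rose (median -0.13).

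Fatty acid synthesis, elongation and desaturation had 30 of 31 genes measured. With TGF-β, 5 rose and 0 fell (median 0.31), among them SCD, FASN, FADS2 and HACD2, an enzyme of chain elongation (24.9 to 87.1 CPM). FADS2 was not called when summed with FEN1, a sum whose limit is given above. With BDS4, 7 rose and 4 fell (median 0.13). ELOVL4 rose from 22.8 to 157 CPM, ELOVL7 from 11.2 to 46.6 CPM and ACSL1, an acyl-CoA synthetase gene, from 18.3 to 73.8 CPM. ELOVL6, which extends palmitate, fell from 57.0 to 11.6 CPM, HACD2 from 87.1 to 19.8 CPM and FADS2 by 1.27 on the log2 scale. The sum of FADS2 with FEN1 was again not called, with the same limit. With RVX-208, 1 rose, HACD3 (68.0 to 179 CPM), and 1 fell (median 0.18). Between the compounds, 7 were higher and 4 lower with BDS4.

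**Figure D4:**
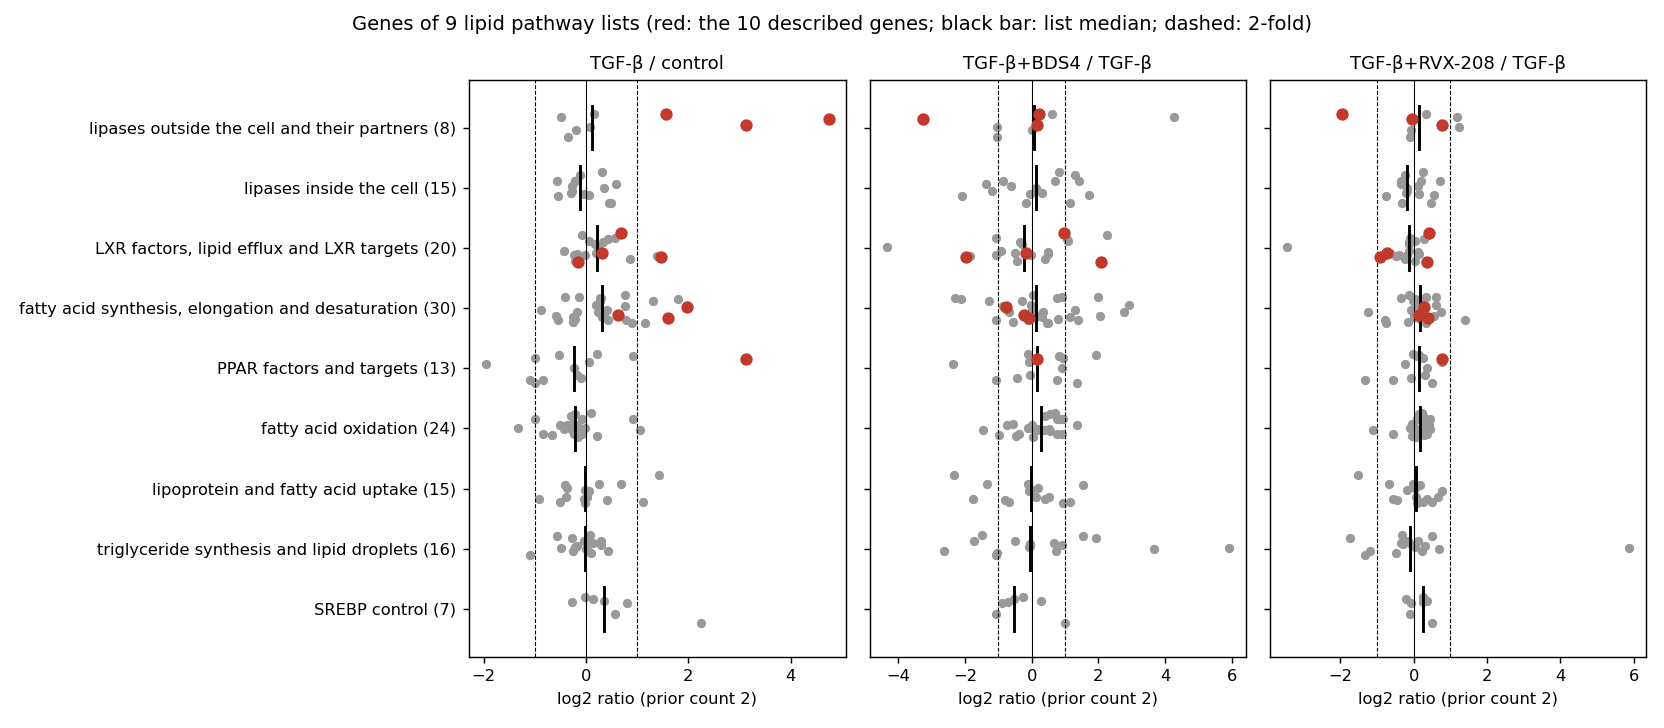
Log2 ratios (prior count 2) of the measured genes of 9 lipid pathway lists in 3 comparisons, with the number measured in brackets; red points are the 10 described genes, black bars list medians and dashed lines 2-fold. Points spread past 2-fold in both directions with BDS4, and list medians stay between -0.52 and 0.36.

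SREBP control genes had 7 of 7 measured. With TGF-β, INSIG1, the sterol-regulated brake on SREBP, rose 4.74-fold (4.43 to 5.08) and 0 fell (median 0.36). With BDS4, INSIG1 rose again, to 411 CPM from 204, and SREBF1 fell from 71.1 to 34.1 CPM (median -0.52). SREBF2 stood at 187, 326, 176 and 313 CPM in control, TGF-β, BDS4 and RVX-208, with no call in the 4 comparisons. With RVX-208, 0 of 7 were called (median 0.24). Lipoprotein and fatty acid uptake genes had 15 of 19 measured. With TGF-β, 2 rose and 0 fell (median -0.01). With BDS4, 2 rose and 3 fell (median -0.01), VLDLR, a receptor gene for triglyceride-rich lipoproteins, rising from 16.1 to 47.2 CPM and CAV1, the caveolin gene, falling from 376 to 112 CPM. With RVX-208, 0 rose and 1 fell (median 0.08).

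PPAR factors and targets had 13 of 18 measured. With TGF-β, ANGPTL4 rose and 3 fell (median -0.24). PPARG fell from 5.69 to 1.40 CPM and PLIN2, a lipid droplet coat gene, from 17.3 to 8.11 CPM. With BDS4, 2 rose and 2 fell (median 0.16), and with RVX-208, 1 fell (median 0.15): PLIN2, to 3.82 CPM with BDS4 and 3.21 with RVX-208. PPARG had 136, 31, 4 and 20 counts in control, TGF-β, BDS4 and RVX-208. PPARD stood between 111 and 128 CPM in all 4 libraries. Of fatty acid oxidation genes, 24 of 25 were measured. With TGF-β, 1 rose and 1 fell (median -0.22), with BDS4, 1 rose and 2 fell (median 0.27), and with RVX-208, 0 rose and 1 fell (median 0.17). CPT1B rose with TGF-β and fell with RVX-208, but it shares 66.4% of its exon bases with CHKB-CPT1B, and both calls ended when the overlapping genes were summed (log2 ratios 0.52 and -0.99).

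Triglyceride synthesis and lipid droplet genes had 16 of 22 measured. With TGF-β, 0 rose and PLIN2 fell (median -0.02). With BDS4, 4 rose and 5 fell (median -0.04): SOAT1, which esterifies cholesterol, rose from 58.7 to 169 CPM, and DGAT2, which completes triglyceride synthesis, fell from 9.28 to 1.42 CPM. With RVX-208, 1 rose and 2 fell (median -0.09), DGAT2 to 4.04 CPM. The gene called higher, AGPAT1, had 4 and 2 counts in the control and TGF-β libraries and 227 and 183 with BDS4 and RVX-208. Another gene on the opposite strand covers 29.9% of AGPAT1 exon bases, and the gene, like RXRB, lies in the MHC region. Neither was tested, and its ratio of 120 with RVX-208 (32.8 to 998) is uncertain.

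Genes whose pattern lay nearest to that of LIPG, LPL, ABCA1 and SCD were sought among 11323 protein-coding genes with at least 5 CPM in their highest library. The measure was the root mean square difference in log2 ratio to control over the 3 libraries with TGF-β, so all points share the control and the same 4 libraries. For LIPG these were WNT7A, a Wnt ligand gene (difference 0.69), the Notch ligand gene JAG1 (0.75) and the transcription factor gene EGR2 (0.77). These differences were larger than those of the genes nearest to LPL, ABCA1 and SCD. WNT7A had 0.167 CPM in the control and 0.343 with BDS4, and EGR2 0.586 CPM in the control, so their ratios depend on the prior count. JAG1 had 21.9 CPM in the control, 358 with TGF-β, 49.0 with BDS4 and 276 with RVX-208. For LPL they were SLC35F6 (0.24), PJA1 (0.39) and RASAL2 (0.41), which like LPL were near the control level with RVX-208 alone among the libraries with TGF-β.

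For ABCA1 the nearest were STAT5B, a transcription factor gene (0.10), EFEMP1, a matrix protein gene (0.14), and the kinase gene RIPK4 (0.18). STAT5B had 43.1, 113, 29.3 and 69.7 CPM in control, TGF-β, BDS4 and RVX-208, beside 42.6, 118, 29.9 and 62.4 CPM for ABCA1. For SCD they included XYLT1, a xylosyltransferase gene of proteoglycan synthesis (0.10), and PID1 (0.17). XYLT1 had 11.5, 42.6, 26.8 and 49.6 CPM in control, TGF-β, BDS4 and RVX-208. Neither ABCG1 nor MYLIP could be among them, since the 10 genes were left out of the search.

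**Figure D5:**
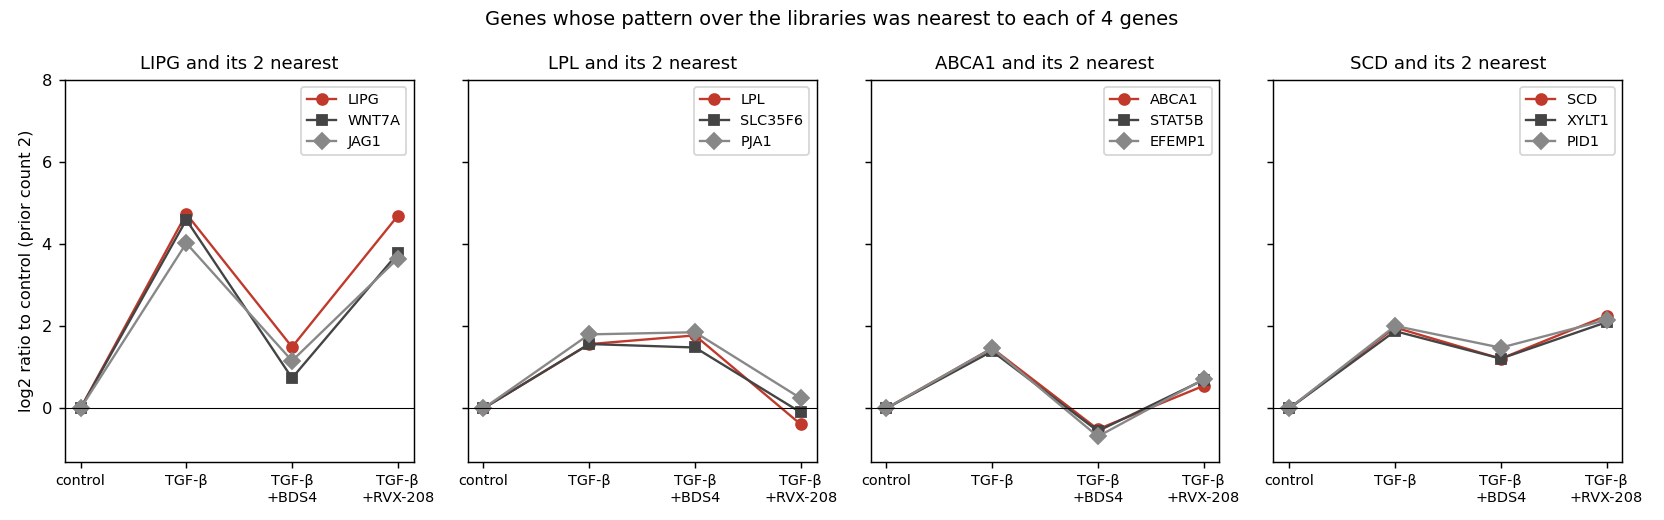
Log2 ratio to control (prior count 2) in the 4 libraries for LIPG, LPL, ABCA1 and SCD in red, each with its 2 nearest genes in grey tones; lines join the libraries of 1 gene. LIPG is lowered with BDS4 (1.49) and LPL with RVX-208 (-0.39) among the libraries with TGF-β.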

How the data were processed

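RNA was sequenced from 4 LX-2 libraries, 1 per group. Raw gene counts were deposited by the authors with FPKM values, which per the series' design text came from StringTie 1.3.0. Per the submitters' processing notes, TopHat2 2.0.6, CASAVA 1.8 and GRCh38 were used; for the counting program and its strand setting, nothing was given in the sources used here. Columns were matched to groups through each sample's description, which for BDS4 is the only link.

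Counts of 63241 rows were scaled by TMM over genes with at least 1 unscaled CPM (edgeR 4.0.16, R 4.3.3; factors 1.06, 1.01, 0.943 and 0.989 for control, TGF-β, BDS4 and RVX-208). The 16099 genes that reached 1 CPM in 1 or more libraries were tested against the 2-fold rule. The ratio intervals are 95% conditional exact (Clopper-Pearson), intervals of single levels are Poisson, and a floor of 3 counts was 0.126 to 0.178 CPM. Intervals cover counting error only. List medians use a prior count of 2. The FPKM values, used for ratios and order of genes within a library, matched count over length and total in 9069 genes. Exons came from GENCODE 29. Other work was done in Python 3.11.15 with scipy 1.17.1 and pandas 2.3.3. The call rule was run on simulated counts drawn with Poisson error alone. They hold no variation between cultures, so that run says nothing about it.

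The 10 genes, the lists and the rules were chosen with earlier results of these data known. Named from each list were at most 3 called genes per direction and comparison with at least 5 CPM, by size of ratio; other genes were chosen after their values were seen. Some genes of the lists are counted but not reported here by name. The 2 comparisons of the compounds with control were added after seeing the data. Alternatives were library totals, DESeq2 1.42.0 size factors, other filters and folds, summed overlapping genes, and FPKM with a pseudocount of 0.1.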

Additional observations from a re-analysis of the deposited data

How the results depend on the processing

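None of the 40 calls or non-calls on the 10 genes (4 comparisons) changed under library totals, DESeq2 size factors, summed overlapping genes or FPKM with a pseudocount of 0.1. No called ratio turned its direction in these 160 values, and 24 moved outside their counting interval. Part of this was set in advance. Summing overlapping genes could alter only APOE and FADS1, which alone had a partner on the same strand. FPKM matched count over length and total, so apart from its pseudocount it repeats library totals. With a threshold of 1.5-fold, 5 of the 10 genes were called with BDS4 against TGF-β in place of 3 (ABCG1 and SCD were added) and 4 with RVX-208 in place of 1 (ANGPTL4, ABCA1 and APOE were added). At 3-fold, 3 were called between the compounds in place of 5, without ABCA1 and SCD. Among genes with at least 5 CPM, 0 were called with RVX-208 in place of 1, because LPL no longer passed. Library totals moved the median over all tested genes from -0.01 to -0.11 with BDS4. No paired analysis was possible because each group has 1 library, and no library could be left out for the same reason. LPL, at 12 to 72 counts, is the gene whose ratios the depth limits most.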
